A study of Mus musculus with 18 samples.

Results

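The 49 mouse genes described here encode the enzymes that make, use and recycle glutathione, the thioredoxin and peroxiredoxin system, the superoxide dismutases and catalase, the enzymes that supply NADPH, ferritin, a set of reductases and heme-breakdown enzymes, and the transcription factor NRF2 (gene Nfe2l2) with its inhibitor KEAP1. The genes were picked by name for these roles and matched to Ensembl identifiers, and all 49 were found among the 55414 genes of the count table. Gstk1 and Ptgr1 were among the reasons for choosing the list, because their counts were higher in both knockdowns, so both are given as a description with no test against Scramble, and members are counted over the other 47. Of the 49 genes, 46 passed the filter on low counts, which left 44 of the 47 for testing. Gpx7, Gpx8 and Mgst1 did not pass, with at most 14, 3 and 3 counts in any library.

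NRF2 is a transcription factor that KEAP1, an adaptor of a ubiquitin ligase, marks for degradation under resting conditions. Oxidants and electrophiles modify KEAP1, NRF2 then accumulates, and it binds antioxidant response elements near genes such as Hmox1, Nqo1, Srxn1, Txnrd1, Gclm and Slc7a11 together with small MAF proteins. Glutathione, a tripeptide made by glutamate-cysteine ligase and glutathione synthetase, is oxidised by the peroxidases and reduced again by glutathione reductase with NADPH from the pentose phosphate pathway and malic enzyme.

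Total RNA depleted of ribosomal RNA was sequenced from Neuro-2a (N2A) cells, a mouse neuroblastoma line, 72 h after transfection with siRNA. In total 18 libraries were measured, 3 for each of 6 siRNAs: Scramble siRNA A and B, which serve as the non-targeting control, Fmr1 siRNA A and B, and Zfp598 siRNA A and B. Fmr1 encodes FMRP, an RNA-binding translational repressor, and Zfp598 encodes a ubiquitin ligase that recognises collided ribosomes in no-go decay. The study asked whether transcripts raised by FMRP depletion are also raised when no-go decay is impaired, and it pooled both siRNAs of a condition (n = 6). The 3 libraries of an siRNA are replicate knockdowns by the study's methods. No source used here says whether they were done on separate days or passages, and the p-values measure the spread between these libraries. The cells are one transformed line, and each protein was depleted rather than deleted.

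Single libraries are written by siRNA and number (Fmr1 A1). The libraries held 7674724 to 15414590 assigned counts. Levels are in CPM, the counts of a gene scaled to a common library size with TMM factors, tests are edgeR quasi-likelihood tests with Benjamini-Hochberg adjustment over all 17901 tested genes, and a gene was called at adjusted p under 0.05. Fmr1 ran from 15.7 to 27.5 CPM in the Fmr1 KD libraries against 51.1 to 68.7 CPM with Scramble, and Zfp598 from 32.2 to 48.7 CPM in the Zfp598 KD libraries against 103 to 128 CPM, so every library matched its label. The summed neuronal markers reached 1010 to 1620 CPM in every library, although Nefl and Nefm were near 0. The sums for glia, macrophage and fibroblast genes were 16.3 to 33.6, 0.96 to 3.36 and 6.46 to 19.1 CPM. Fmr1 B1 stood apart, with 37 CPM of pluripotent stem cell markers against at most 1.18 CPM elsewhere. Without it, 3 members were called in pooled Fmr1 KD and 11 with Fmr1 siRNA B. One feature took 25.8% of the counts in Zfp598 A3 (the shallowest library), 15.2% in Zfp598 A2, 11.1% and 8.83% in Scramble A1 and A3, and 5% to 7.93% in the other libraries. The 49 members together made up 0.339% to 0.525% of the counts, with 0.506% to 0.525% in the libraries of Fmr1 siRNA A.

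A few stretches of promoter sequence are shown because their genes carry results given further on. Txnrd1 moved in opposite directions with the Fmr1 siRNAs, Prdx1 rose with both of them, Gclm rose with Zfp598 siRNA B, and Nfe2l2 encodes the regulator itself. RefSeq promoter windows, which hold 300 bases around an annotated transcript start (table build GRCm38.p6), were searched on both strands for the core letters of the antioxidant response element, TGACNNNGC. The core, or its reverse complement, is in capitals with 10 flanking bases on each side, each read 5′ to 3′ on the strand of its gene. Each stretch matched once in GRCm39 in and around its gene, the only region searched.
Txnrd1 (thioredoxin reductase, chr10:82694938-82694966, plus strand, in an intron): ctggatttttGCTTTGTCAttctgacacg
Prdx1 (peroxiredoxin, chr4:116542653-116542681, plus strand, in an intron): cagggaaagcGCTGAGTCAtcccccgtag
Gclm (regulatory subunit of glutamate-cysteine ligase, chr3:122039062-122039090, plus strand, upstream of the gene): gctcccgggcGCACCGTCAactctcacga
Nfe2l2 (NRF2, chr2:75535229-75535257, minus strand, upstream of the gene): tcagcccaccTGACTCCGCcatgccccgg
The core stood in a window of 11 of the 43 members that have one (25.6%), and in 3781 of all 27025 genes with a window (14%). By window rather than gene the shares were 11 of 57 (19.3%) and 4071 of 32851 (12.4%). The other members with the core were G6pdx, Gstm5, Me1, Mgst1, Pgd, Sod1 and Srxn1. These are matches of letters, not binding sites. Hmox1, Gclc, Gsr, Gsta4, Gstt2 and Prdx6 had no window in the table.

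The levels of the members spanned several orders of magnitude when CPM was divided by exon length (CPM per kb, mean of 18 libraries). Ferritin light chain Ftl1 was highest at 462 CPM per kb, followed by Gpx4, the peroxidase that reduces lipid hydroperoxides in membranes, at 156 CPM per kb. The highest glutathione transferase was Gstp1 at 62 CPM per kb, and the highest gene of the thioredoxin system was Prdx2, a cytosolic peroxiredoxin, at 59.1 CPM per kb. Among the other roles the leading genes were Taldo1 (transaldolase of the pentose phosphate pathway, 29.1), Hmox1 (heme oxygenase, 24.7), Sod1 (cytosolic superoxide dismutase, 12.9) and Gsr (glutathione reductase, 12.3), all in CPM per kb. Keap1 stood at 9.01 and Nfe2l2 at 4.18 CPM per kb. At the low end, Nqo1, a quinone reductase widely used as an NRF2 readout, reached 1.01 CPM per kb, and the filtered genes Gpx7, Mgst1 and Gpx8 reached 0.222, 0.0252 and 0.00606 CPM per kb.

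**Figure D1:**
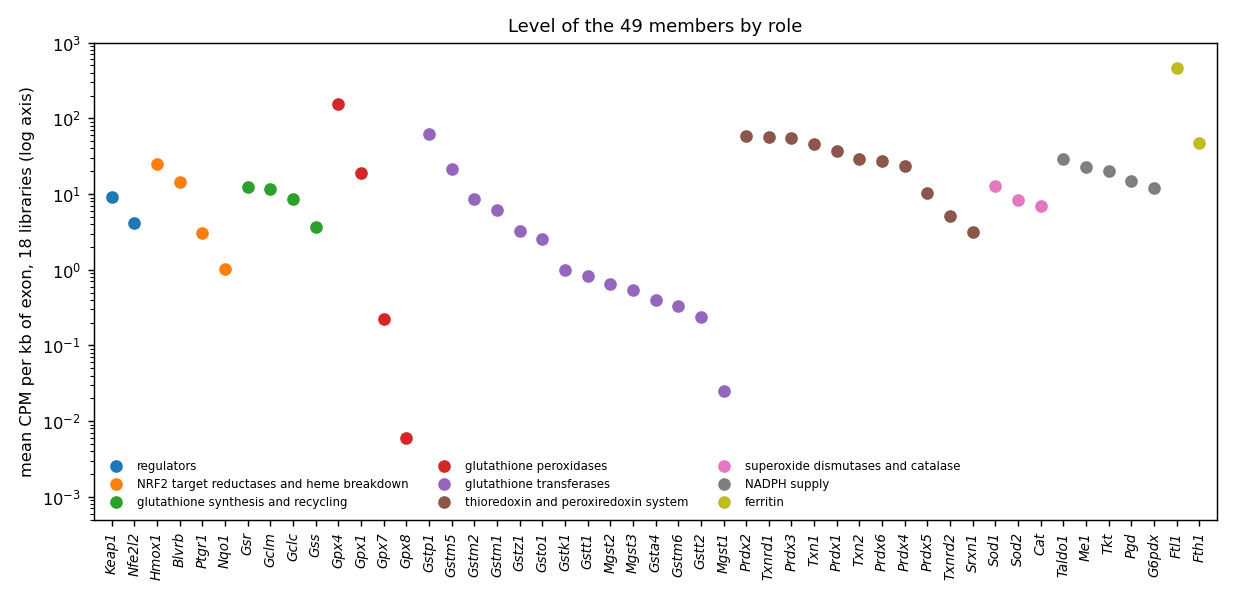
Mean level of each of the 49 genes over 18 libraries in CPM per kb of exon, on a log axis, grouped by role. Ftl1 (462) and Gpx4 (156) lead, and Gpx7, Mgst1 and Gpx8 lie at the bottom.

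With both siRNAs pooled, Fmr1 KD changed few of these genes. Of 44 members, 3 rose (Fth1, Mgst3 and Pgd) and 1 fell (Prdx4), against 2.73% of all tested genes called higher and 3.8% called lower. The median log2 fold change of the members was 0.08 against 0 for all genes, 11 of 44 members (25%) had an unadjusted p under 0.05 against 21.6% of all tested genes, and none of the calls was over 2-fold. In bulk RNA, a gene lost from fewer cells and less RNA per cell cannot be told apart.

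Prdx4, the peroxiredoxin of the endoplasmic reticulum, fell with both Fmr1 siRNAs. Its CPM was 114, 107 and 115 with Scramble siRNA A and 104, 108 and 114 with Scramble siRNA B, against 69.1, 65.5 and 77.6 with Fmr1 siRNA A and 67.3, 75.2 and 82.6 with Fmr1 siRNA B. Every Fmr1 KD library lay below every Scramble library. The log2 fold change was −0.60 ± 0.0943 (SE, n = 6 against 6, edgeR adjusted p = 0.000775), and it remained called when any one library was left out. Prdx4 and the mitochondrial thioredoxin reductase Txnrd2 were the 2 of 44 members whose Fmr1 KD libraries all lay below Scramble, against 3.51% of all tested genes. Txnrd2 was at 15.5 to 20.5 CPM in Fmr1 KD and 21.7 to 29.5 CPM with Scramble, and its change of −0.38 missed the threshold (edgeR adjusted p = 0.0784).

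The 3 genes that rose in the pooled comparison were called less firmly. Mgst3, a membrane-bound glutathione transferase and peroxidase, was at 2.37 to 2.9 CPM in Fmr1 KD (median 2.68) and at 0.658 to 1.99 CPM with Scramble (median 1.54), without overlap, which 1 of 44 members showed against 2.46% of all tested genes. Its log2 fold change was 0.90 ± 0.246 (edgeR adjusted p = 0.0326), on 7 to 43 counts per library. Pgd, the second NADPH-producing enzyme of the pentose phosphate pathway, ran from 99.9 to 173 CPM (median 140) against 74 to 125 CPM (median 81.8), a log2 fold change of 0.59 ± 0.16 (edgeR adjusted p = 0.0302), and the groups overlapped. Fth1, ferritin heavy chain with ferroxidase activity, ran from 123 to 288 CPM (median 204) against 93.6 to 175 CPM (median 124), also with overlap, and its log2 fold change was 0.64 ± 0.186 (edgeR adjusted p = 0.0432). Leaving out 1 library kept the call for Mgst3 and Pgd in 5 of 12 cases each and for Fth1 in 4 of 12. The log2 fold changes then ran from 0.75 to 1.02, from 0.52 to 0.70 and from 0.51 to 0.75. The call of Mgst3 was lost without Fmr1 A1, A2, B1 or B3 or any Scramble B library, that of Pgd without any Fmr1 A library, Scramble A2 or any Scramble B library, and that of Fth1 without any Fmr1 A or Scramble A library, Scramble B1 or Scramble B2. Outside the groups compared, leaving out Zfp598 B3 also lost the call of Fth1.

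**Figure D2:**
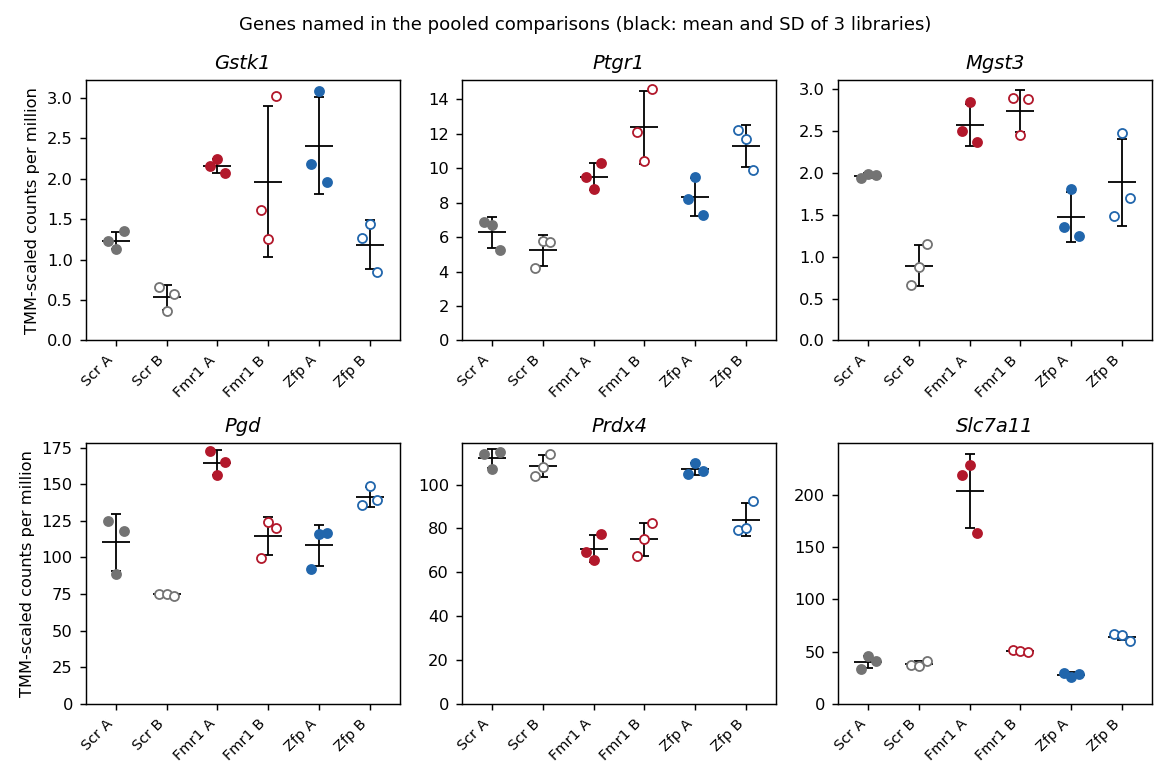
CPM in each of the 18 libraries (points, filled for siRNA A and open for siRNA B) with mean and SD of the 3 libraries of an siRNA in black, for Gstk1, Ptgr1, Mgst3, Pgd, Prdx4 and Slc7a11. Prdx4 is below the Scramble libraries with both Fmr1 siRNAs, and Slc7a11 reaches 163 to 228 CPM with Fmr1 siRNA A alone.

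Pooled Zfp598 KD called 0 of 44 members with edgeR, against 0.916% of all tested genes called higher and 1.04% called lower. An unadjusted p under 0.05 was found for 7 of 44 members (15.9%) against 18.1% of all tested genes, the members' median log2 fold change was 0.01, and DESeq2 called 2 (Gstm2 and Nfe2l2, both lower). Hmox1 was the 1 member whose Zfp598 KD libraries did not overlap Scramble, at 21.3 to 31.4 CPM against 38.7 to 46.9 CPM, where 1.11% of all tested genes lay below and 0.765% above. Its pooled log2 fold change was −0.64 ± 0.359 (edgeR adjusted p = 0.363). The pooled fit takes its spread from all 3 conditions, and the Fmr1 KD libraries ran from 20 to 110 CPM. Nfe2l2 was at −0.63 ± 0.186 (edgeR adjusted p = 0.0781) and Gstm2, a mu-class glutathione transferase, at −0.49 ± 0.142 (edgeR adjusted p = 0.0745).

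Each siRNA was then set against the Scramble siRNA that carries its letter (n = 3 against 3), and more members were called. With Fmr1 siRNA A, 20 of 44 members changed, 14 higher and 6 lower, against 10% and 13.6% of all tested genes, and the members' median was 0.12 against −0.02 to 0.01 for all genes across the comparisons. The thioredoxin and peroxiredoxin system gave 5 rises and 2 falls among 11 members, NADPH supply 3 rises and 2 falls among 5, the reductases and heme oxygenase 2 rises among 3, and ferritin, the glutathione peroxidases and the genes of glutathione synthesis and recycling 1 rise each among 2, 2 and 4. The 12 tested glutathione transferases gave 1 rise and 1 fall, superoxide dismutases and catalase 1 fall among 3, and neither regulator was called. With Fmr1 siRNA B, 14 of 44 changed, 5 higher and 9 lower, against 11.3% of all tested genes in each direction, with a median of 0.01. There the transferases gave 3 rises and 1 fall, thioredoxin and peroxiredoxin genes 1 rise and 2 falls, NADPH supply 1 rise, and glutathione synthesis and recycling 2 falls, and ferritin, the peroxidases, the reductases and the regulators gave 1 fall each.

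Hmox1 (ENSMUSG00000005413, chromosome 8, 75820241 to 75827217, GRCm39, plus strand), which encodes the inducible heme oxygenase, moved in opposite directions with the 2 Fmr1 siRNAs. It was at 40.2, 43 and 46.9 CPM with Scramble siRNA A and 110, 100 and 104 CPM with Fmr1 siRNA A. It was at 40.2, 38.7 and 38.9 CPM with Scramble siRNA B and 20.2, 22.2 and 20 CPM with Fmr1 siRNA B. The libraries of Fmr1 siRNA A all lay above both Scramble groups and those of Fmr1 siRNA B all lay below them. The log2 fold changes were 1.27 ± 0.101 (edgeR adjusted p = 3.22e-08) and −0.92 ± 0.106 (edgeR adjusted p = 2.84e-06), and the effects of the siRNAs differed by −2.19 ± 0.147 (edgeR adjusted p = 6.87e-09).

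Hmox1 was 1 of 5 members, 11.4% of 44, called in opposite directions with the 2 Fmr1 siRNAs, against 3.61% of all tested genes. The others, named here because the count is small, were Txnrd1, Gsr, Gpx4 and Gsta4, and Gsta4 alone among the 5 was lower with siRNA A and higher with siRNA B. Txnrd1, the cytosolic thioredoxin reductase, was at 402, 374 and 404 CPM with Scramble siRNA A, 641, 598 and 605 CPM with Fmr1 siRNA A, 348, 355 and 377 CPM with Scramble siRNA B and 260, 278 and 275 CPM with Fmr1 siRNA B. Its log2 fold changes were 0.64 ± 0.11 (edgeR adjusted p = 0.000196) and −0.41 ± 0.11 (edgeR adjusted p = 0.00962). Gsr, which returns oxidised glutathione to its reduced form, rose by 0.64 ± 0.0872 with siRNA A (edgeR adjusted p = 1.71e-05) and was at −0.29 ± 0.087 with siRNA B (edgeR adjusted p = 0.0201), a call kept in 1 of 6 cases when 1 library was left out (without Scramble B2). Gpx4 was at 0.34 ± 0.0869 and −0.41 ± 0.0869 (edgeR adjusted p = 0.00609 and 0.00179). Against both Scramble siRNAs together, neither the fall of Gsr with siRNA B nor the rise of Gpx4 with siRNA A was called. Gsta4, an alpha-class transferase that conjugates lipid peroxidation products, was at −1.47 ± 0.396 and 1.19 ± 0.369 (edgeR adjusted p = 0.00975 and 0.0239) on a mean of 14.3 counts per library. Both Gsta4 calls were lost against the Scramble siRNAs together, the fall without Fmr1 A2 or Scramble A3, and the rise without Fmr1 B1, Scramble B1 or Scramble B2.

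**Figure D3:**
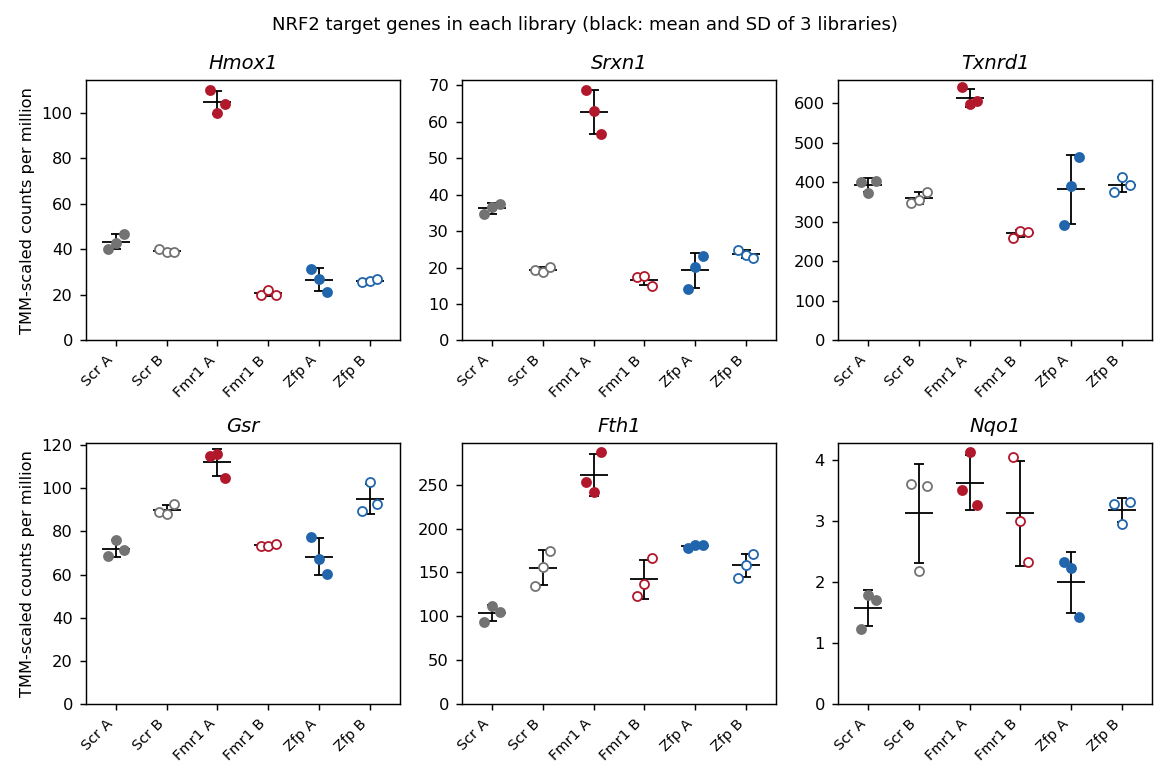
CPM in each of the 18 libraries (points, filled for siRNA A and open for siRNA B) with mean and SD of the 3 libraries of an siRNA in black, for Hmox1, Srxn1, Txnrd1, Gsr, Fth1 and Nqo1. Hmox1 stands at 100 to 110 CPM with Fmr1 siRNA A and at 20 to 22.2 CPM with Fmr1 siRNA B, on either side of the Scramble libraries.

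Other antioxidant genes rose with Fmr1 siRNA A and were not called with Fmr1 siRNA B. Srxn1, which encodes sulfiredoxin and repairs overoxidised peroxiredoxins, was at 68.7, 62.8 and 56.5 CPM with Fmr1 siRNA A against 34.6, 36.5 and 37.5 CPM, a rise of 0.79 ± 0.122 (edgeR adjusted p = 7.08e-05). With siRNA B it was at 17.3, 17.6 and 15 CPM against 19.4, 18.8 and 20.1 CPM, a change of −0.22 (edgeR adjusted p = 0.248). The groups did not overlap in either comparison, and the effects differed by −1.01 ± 0.18 (edgeR adjusted p = 0.000324). Fth1 reached 253, 242 and 288 CPM with siRNA A against 93.6, 112 and 105 CPM, a rise of 1.33 ± 0.113 (edgeR adjusted p = 7.1e-08). With siRNA B it was at 123, 137 and 166 CPM against 135, 156 and 175 CPM, a change of −0.13 (edgeR adjusted p = 0.441), and the difference between the siRNAs was −1.46 ± 0.158 (edgeR adjusted p = 1.45e-06). Of the Fmr1 KD libraries, the 3 of siRNA A lay above the highest Scramble library and the 3 of siRNA B did not.

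Nqo1 was at 3.51, 4.14 and 3.26 CPM with Fmr1 siRNA A against 1.23, 1.79 and 1.7 CPM with Scramble siRNA A. The rise was 1.19 ± 0.265 (edgeR adjusted p = 0.00233). With Scramble siRNA B it was at 3.62, 2.19 and 3.58 CPM and with Fmr1 siRNA B at 4.05, 3.01 and 2.33 CPM, a change of 0.00. Scramble siRNA B lay above Scramble siRNA A for this gene by 0.98 ± 0.268 (edgeR adjusted p = 0.0115, lost without Scramble A1, B1 or B3), and its level with Fmr1 siRNA A overlapped that with Scramble siRNA B. Without the 4 libraries in which the most counted feature was highest, the rise of Nqo1 with Fmr1 siRNA A was 1.02. That setting left 1 library each for Scramble siRNA A and Zfp598 siRNA A, here and in the paragraphs that follow.

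The NADPH genes did not move as a block. Pgd rose with both Fmr1 siRNAs, by 0.58 ± 0.114 and 0.62 ± 0.115 (edgeR adjusted p = 0.000873 and 0.000555), although Scramble siRNA A ran from 88.4 to 125 CPM and Scramble siRNA B from 74 to 75.2 CPM. G6pdx, the entry enzyme of the pentose phosphate pathway, rose by 0.39 with siRNA A (edgeR adjusted p = 0.00283), and Taldo1 by 0.59 (edgeR adjusted p = 0.000186). Tkt, the transketolase of the same pathway, was at 144, 146 and 151 CPM with Fmr1 siRNA A against 237, 208 and 224 CPM, a fall of −0.60 ± 0.0726 (edgeR adjusted p = 3.94e-06). It stood at 213, 213 and 218 CPM with Fmr1 siRNA B against 213, 213 and 203 CPM, where it was not called. Me1, the cytosolic malic enzyme, was at −0.58 with siRNA A (edgeR adjusted p = 0.000271) and −0.02 with siRNA B (edgeR adjusted p = 0.901).

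Across both Fmr1 siRNAs, Pgd and Prdx1 were called higher with each (2 of 44, 4.55%, against 1.66% of all tested genes) and Prdx4 lower with each (1 of 44, 2.27%, against 3.03%). Another 18 members were called with one siRNA only (40.9%, against 29.6% of all tested genes) and 18 with neither (40.9%, against 62.1%). Prdx1, the abundant cytosolic peroxiredoxin, rose by 0.40 ± 0.0931 with siRNA A (edgeR adjusted p = 0.0034) and 0.55 ± 0.0936 with siRNA B (edgeR adjusted p = 0.000228). Prdx4 was at −0.66 ± 0.0899 and −0.53 ± 0.0895 (edgeR adjusted p = 1.65e-05 and 0.000193). Mgst3 rose by 1.60 ± 0.27 with siRNA B (edgeR adjusted p = 0.000199), at 2.9, 2.45 and 2.88 CPM against 0.658, 0.876 and 1.15 CPM, and was at 0.38 with siRNA A (edgeR adjusted p = 0.294), at 2.5, 2.85 and 2.37 CPM against 1.94, 1.99 and 1.98 CPM. The libraries of the 2 Fmr1 siRNAs overlapped, and those of the 2 Scramble siRNAs did not.

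The difference between the effects of the Fmr1 siRNAs was called for 19 of 44 members. For 15 members the effect of siRNA B was lower than that of siRNA A, and for 4 it was higher, against 9.65% and 12.2% of all tested genes, with a members' median of −0.02. The 4 were Gsta4 (2.66 ± 0.541, edgeR adjusted p = 0.00121), Mgst3 (1.22 ± 0.369, edgeR adjusted p = 0.0214, lost without Scramble B1), Tkt (0.64 ± 0.102, edgeR adjusted p = 0.000116) and Me1 (0.56 ± 0.144, edgeR adjusted p = 0.00779). Hmox1 and Fth1 had the largest differences in the other direction, followed by Nqo1 at −1.19 ± 0.361 (edgeR adjusted p = 0.0213), whose call was lost without Fmr1 A2, Fmr1 B3, Scramble A1, Scramble B1 or Scramble B3.

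Setting each Fmr1 siRNA against both Scramble siRNAs together (3 against 6) moved several of these values. Calls with Fmr1 siRNA A moved from 0.79 to 1.24 for Srxn1, from 0.40 to 0.62 for Prdx1 and from 1.19 to 0.70 for Nqo1. Calls with Fmr1 siRNA B moved from 1.60 to 1.04 for Mgst3, from 0.62 to 0.33 for Pgd, from 0.55 to 0.33 for Prdx1 and from −0.41 to −0.25 for Gpx4. All of these stayed called (edgeR adjusted p up to 0.0214), in the same direction. With Fmr1 siRNA A the calls of Gpx4, Gsta4, Gsto1 (0.41, edgeR adjusted p = 0.0944) and Prdx6 (0.24, edgeR adjusted p = 0.0517) were lost. With Fmr1 siRNA B those of Gsr, Gsta4, Gstm1 and Gstz1 (−0.24, edgeR adjusted p = 0.115) were lost, and Gstm1 changed sign. Without the 4 libraries in which the most counted feature was highest, Pgd was at 0.90 with Fmr1 siRNA A, the difference between the Fmr1 siRNAs was −0.54 for Nfe2l2 (edgeR adjusted p = 0.0316), and pooled Fth1 was at 0.48 (edgeR adjusted p = 0.121).

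**Figure D4:**
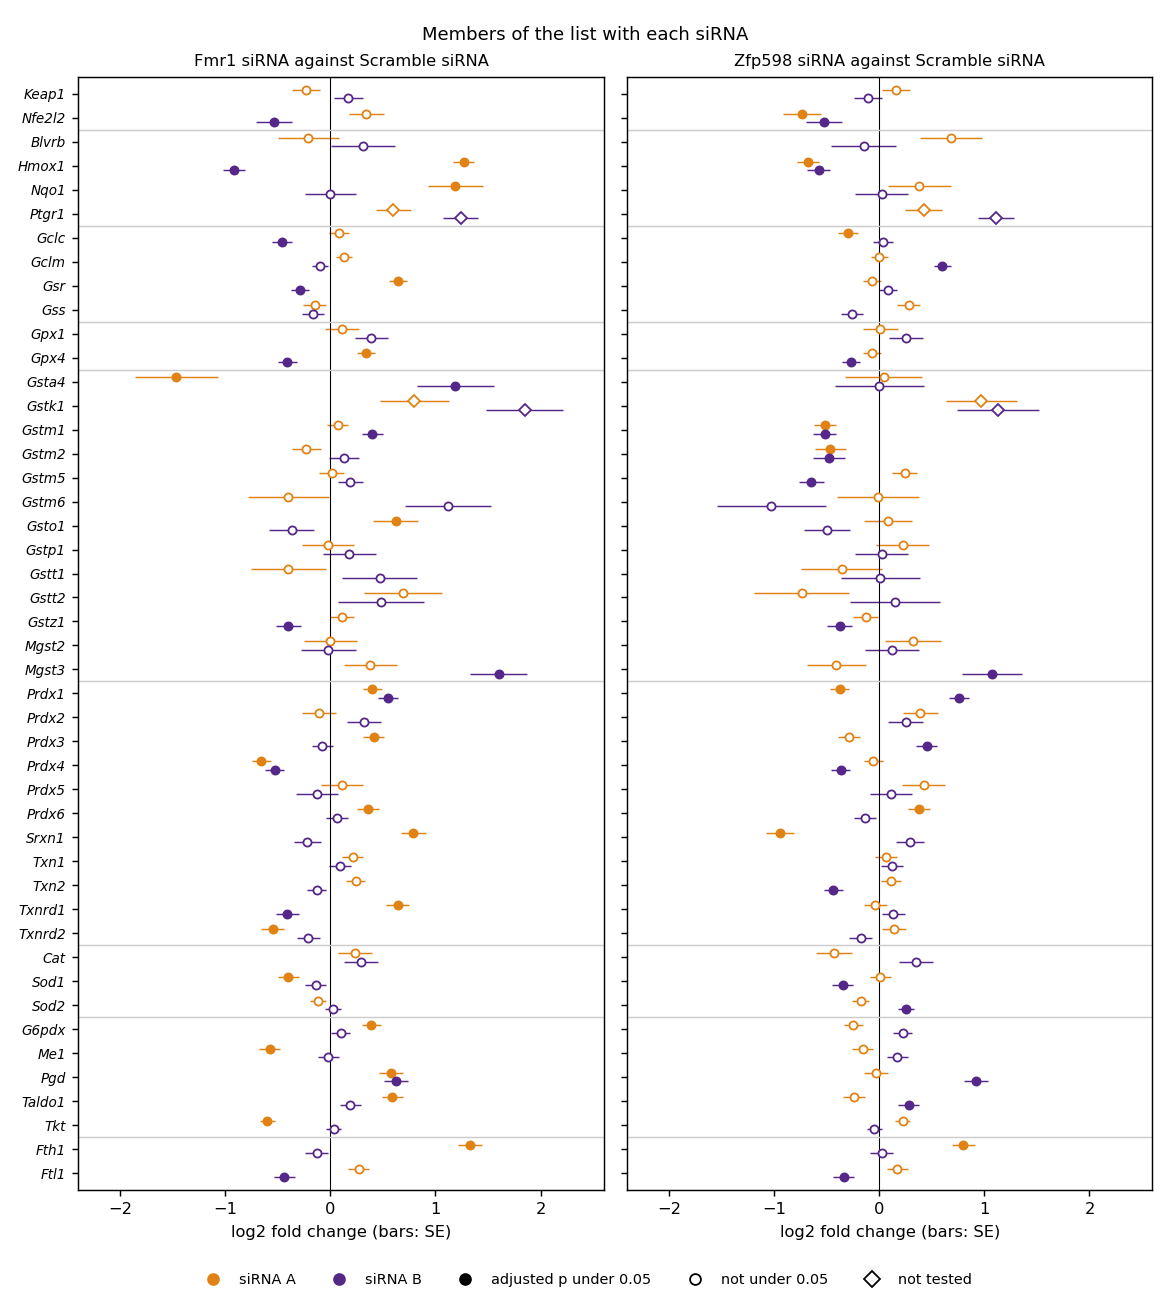
Log2 fold change against the Scramble siRNA that carries the same letter, with SE, for the 46 tested genes, with Fmr1 KD on the left and Zfp598 KD on the right, siRNA A in orange and siRNA B in purple. Filled points passed an adjusted p of 0.05 and diamonds (Gstk1, Ptgr1) were not tested. Hmox1 lies at 1.27 and −0.92 with the Fmr1 siRNAs, and at −0.68 and −0.58 with the Zfp598 siRNAs.

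With Zfp598 siRNA A, 9 of 44 members changed, 2 higher (Fth1 and Prdx6) and 7 lower, against 6.3% and 5.64% of all tested genes, with a median of −0.02. The falls were 2 of 12 transferases (Gstm1 and Gstm2), 2 of 11 thioredoxin and peroxiredoxin genes (Prdx1 and Srxn1) and 1 each in synthesis and recycling (Gclc), the reductases (Hmox1) and the regulators (Nfe2l2). The call of Gclc, the catalytic subunit of glutamate-cysteine ligase, was at its limit (−0.30, edgeR adjusted p = 0.0494) and was lost without any one of the 6 libraries. With Zfp598 siRNA B, 18 of 44 changed, 7 higher and 11 lower, against 12.4% and 14.4%, with a median of 0.02. Its rises were in NADPH supply (2 of 5), thioredoxin and peroxiredoxin genes (2 of 11), and 1 each in synthesis and recycling, the transferases and the superoxide dismutases. Its falls were 4 of 12 transferases, 2 thioredoxin and peroxiredoxin genes, and 1 each in ferritin, the glutathione peroxidases, the reductases, the regulators and the superoxide dismutases.

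Of 44 members, 4 (9.09%) were called lower with both Zfp598 siRNAs, against 1.17% of all tested genes. They were Hmox1, Nfe2l2, Gstm1 and Gstm2. No member (0 of 44) was higher with both, against 0.631%, and 1 (Prdx1, 2.27%) was called in opposite directions, against 3.15%. Another 17 were called with one siRNA (38.6%, against 28.8%) and 22 with neither (50%, against 66.2%).

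Hmox1 was at 31.4, 27.1 and 21.3 CPM with Zfp598 siRNA A and at 25.9, 26 and 26.9 CPM with Zfp598 siRNA B, below every Scramble library. The log2 fold changes were −0.68 ± 0.107 (edgeR adjusted p = 0.000325) and −0.58 ± 0.105 (edgeR adjusted p = 0.000356), both called whichever single library was left out. Without the 4 libraries high in the most counted feature, Zfp598 siRNA A and Scramble siRNA A kept 1 library each, and the change with siRNA A was −0.46.

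Nfe2l2 (ENSMUSG00000015839, chromosome 2, 75504739 to 75534985, GRCm39, minus strand) was at 18.9, 14.8 and 9.78 CPM with Zfp598 siRNA A against 20.6, 31.6 and 22.5 CPM. With Zfp598 siRNA B it was at 19.7, 21 and 16.7 CPM against 29.4, 27.3 and 26.3 CPM. No library overlapped its own Scramble group, and the changes were −0.74 ± 0.181 (edgeR adjusted p = 0.0115) and −0.53 ± 0.172 (edgeR adjusted p = 0.0273). It was at 19.2, 19.3 and 18.6 CPM with Fmr1 siRNA B, a change of −0.54 ± 0.171 (edgeR adjusted p = 0.0266), and at 28.4, 36.9 and 29.8 CPM with Fmr1 siRNA A, a change of 0.34 (edgeR adjusted p = 0.155). The effects of the Fmr1 siRNAs differed by −0.88 ± 0.24 (edgeR adjusted p = 0.0109). These calls were narrow: leaving out 1 library kept that of Fmr1 siRNA B in 1 of 6 cases (without Scramble B3), that of Zfp598 siRNA A in 5 of 6 (−0.99 to −0.53, lost without Scramble A2, and at −0.41 with edgeR adjusted p = 0.25 without Zfp598 A2 and A3 together) and that of Zfp598 siRNA B in 2 of 6 (lost without Scramble B1 or B2 or Zfp598 B1 or B3). Zfp598 siRNA B and Fmr1 siRNA B share their Scramble libraries, as do the siRNAs A.

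Keap1 passed no test against Scramble. Its log2 fold changes were −0.23 and 0.17 with Fmr1 siRNA A and B (edgeR adjusted p = 0.232 and 0.411), and 0.16 and −0.11 with Zfp598 siRNA A and B (edgeR adjusted p = 0.491 and 0.62). Its levels ran from 38.7 to 73.8 CPM, the highest in Zfp598 A2 and A3.

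The mu-class transferases Gstm1 and Gstm2 conjugate glutathione to electrophiles. Gstm1 was at 14.6, 14.7 and 15.3 CPM with Zfp598 siRNA A against 22, 21.6 and 20.3 CPM, and at 8.49, 7.91 and 8.18 CPM with Zfp598 siRNA B against 10.5, 12.1 and 12.7 CPM. Both changes were −0.52 (SE 0.105 and 0.111, edgeR adjusted p = 0.00288 and 0.00156), although the Scramble siRNAs themselves differed by −0.86 ± 0.103 (edgeR adjusted p = 4.95e-06). Against both Scramble siRNAs together, Gstm1 was at −0.09 with Zfp598 siRNA A (edgeR adjusted p = 0.525) and −0.95 with Zfp598 siRNA B (edgeR adjusted p = 6.66e-07). Without the 4 libraries highest in the most counted feature, Gstm1 was at −0.58 with Zfp598 siRNA A, with 1 library on each side. With Fmr1 siRNA B it was higher by 0.40 (edgeR adjusted p = 0.00807), which turned to −0.03 against both Scramble siRNAs together (edgeR adjusted p = 0.854). Gstm2 was at −0.47 and −0.48 (edgeR adjusted p = 0.0406 and 0.021), calls kept in 2 and 3 of 6 cases when 1 library was left out. The former was lost without Scramble A2 or A3 or Zfp598 A2 or A3, the latter without Scramble B2 or Zfp598 B1 or B2. The former was also lost against both Scramble siRNAs together (−0.28, edgeR adjusted p = 0.146), and without Zfp598 A2 and A3 together, which left 1 library of that siRNA. Without the 4 libraries, with 1 library on each side, Gstm2 was at −0.59. Gstm5 fell by 0.65 on the log2 scale with siRNA B (SE 0.12, edgeR adjusted p = 0.00039), at 16.3, 16.9 and 15.9 CPM against 25.8, 24.1 and 27.4 CPM, and was at 0.24 with siRNA A (edgeR adjusted p = 0.19). For Gstm5 the effects of the Zfp598 siRNAs differed by −0.90 ± 0.167 (edgeR adjusted p = 0.00061).

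Several genes answered the Zfp598 siRNAs differently. Prdx1 was at 128, 123 and 97.1 CPM with siRNA A against 154, 138 and 164 CPM, and at 181, 194 and 194 CPM with siRNA B against 109, 108 and 119 CPM. It was lower by −0.38 ± 0.0945 (edgeR adjusted p = 0.0123) with the former and higher by 0.76 ± 0.0939 (edgeR adjusted p = 5.74e-06) with the latter, a difference of 1.14 ± 0.133 (edgeR adjusted p = 4.34e-06). The fall with siRNA A was not called without Zfp598 A2 and A3 together, nor without Scramble A3, nor against both Scramble siRNAs together (−0.16, edgeR adjusted p = 0.185). Without the 4 libraries highest in the most counted feature it was at −0.12, with 1 library on each side. Srxn1 was at 14.1, 20.2 and 23.3 CPM with siRNA A against 34.6, 36.5 and 37.5 CPM, a change of −0.95 ± 0.134 (edgeR adjusted p = 0.000104), and at 24.9, 23.4 and 22.7 CPM with siRNA B against 19.4, 18.8 and 20.1 CPM, a change of 0.29 ± 0.13 (edgeR adjusted p = 0.111). The difference was 1.24 ± 0.186 (edgeR adjusted p = 7.33e-05). Against both Scramble siRNAs together the change with siRNA A was −0.50 (edgeR adjusted p = 0.00818). Against the Scramble libraries of either letter taken as one range (18.8 to 37.5 CPM), Zfp598 siRNA B lay inside and of the Zfp598 siRNA A libraries Zfp598 A1 lay below it.

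Pgd rose by 0.92 ± 0.116 with Zfp598 siRNA B (edgeR adjusted p = 7.35e-06), at 136, 149 and 139 CPM against 74.9, 75.2 and 74 CPM, and was at −0.03 with siRNA A (edgeR adjusted p = 0.889). Gclm rose by 0.60 ± 0.079 with siRNA B (edgeR adjusted p = 1.3e-05), at 119, 121 and 112 CPM against 80.8, 76 and 76 CPM. With siRNA A it was at 87, 93.3 and 101 CPM against 97.3, 89 and 94.2 CPM, a change of 0.00. Mgst3 rose by 1.07 ± 0.285 with siRNA B (edgeR adjusted p = 0.00852), but was at 0.50 against both Scramble siRNAs together (edgeR adjusted p = 0.113), and the call was lost without Zfp598 B2. Fth1 rose by 0.80 ± 0.113 with siRNA A (edgeR adjusted p = 0.00011), at 178, 181 and 181 CPM against 93.6, 112 and 105 CPM, and stood at 144, 159 and 171 CPM with siRNA B against 135, 156 and 175 CPM. Against both Scramble siRNAs together the rise with siRNA A was 0.50 (edgeR adjusted p = 0.00174). Prdx6, a peroxiredoxin with phospholipase activity, was at 0.38 with siRNA A (edgeR adjusted p = 0.0238), a call lost without Scramble A2, Zfp598 A2 or Zfp598 A3, and against both Scramble siRNAs together (0.26, edgeR adjusted p = 0.0543). Of 44 members, the effect of Zfp598 siRNA B exceeded that of siRNA A for 10 and was below it for 6, against 10.1% and 11.9% of all tested genes, with a median of −0.02.

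The control siRNAs differed from each other for these genes as well. Between Scramble siRNA B and Scramble siRNA A, 16 of 44 members were called, 5 higher and 11 lower, against 10.4% and 12.2% of all tested genes, and the members' median was −0.21. The falls were 4 of 12 transferases, 2 of 5 NADPH genes, 2 of 11 thioredoxin and peroxiredoxin genes and 1 each in synthesis and recycling, the reductases and the regulators, and the rises were 1 each in ferritin, the peroxidases, synthesis and recycling, NADPH supply and the reductases. Srxn1 was lower by −0.90 ± 0.128 (edgeR adjusted p = 3.46e-05), Mgst3 by −1.13 ± 0.281 (edgeR adjusted p = 0.00631), and Fth1 was higher by 0.59 ± 0.112 (edgeR adjusted p = 0.000705). Taldo1 was higher by 0.35 (edgeR adjusted p = 0.0153, lost without Scramble A1 or B3) and Gsta4 lower by −1.05 (edgeR adjusted p = 0.0495, kept in 1 of 6 cases with 1 library left out, without Scramble A2). Hmox1 and Txnrd1 were at −0.14 and −0.13 (edgeR adjusted p = 0.343 and 0.444).

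Levels of some members stood apart in the libraries with a high share of the most counted feature. Blvrb, biliverdin reductase B, was at 125 CPM in Zfp598 A3, 81.4 CPM in Zfp598 A2, 59.3 CPM in Scramble A1 and 52.9 CPM in Scramble A3, which are the 4 libraries with the highest share of that feature, against 20.6 to 53.9 CPM in the other 14. In the same order of libraries, Gstp1 was at 214, 150, 152 and 141 CPM, Prdx2 at 427, 422, 321 and 296 CPM, and Nfe2l2 at 9.78, 14.8, 20.6 and 22.5 CPM. In the other 14 libraries Gstp1 ran from 60.5 to 155 CPM, Prdx2 from 201 to 284 CPM and Nfe2l2 from 16.7 to 36.9 CPM, so that Prdx2 alone of these genes did not overlap, and Nfe2l2 in Scramble A1 and A3 lay within the range of the others. Prdx2 and Nfe2l2 were not called between the Scramble siRNAs. The erythroid and hepatocyte marker sums were at or near 0 in all libraries, and the source of the high Blvrb, Gstp1 and Prdx2 levels was not tested. Between the Scramble siRNAs, Blvrb was at −0.97 ± 0.301 (edgeR adjusted p = 0.0238), Gstp1 at −0.91 ± 0.252 (edgeR adjusted p = 0.0127) and Keap1 at −0.38 (edgeR adjusted p = 0.0454). With 1 library left out, Blvrb and Keap1 stayed called in 1 of 6 cases each (without Scramble A2), and Gstp1 in 4 of 6 (lost without Scramble A1 or A3). Without the 4 libraries, which left Scramble A2 as the only library of Scramble siRNA A, these values were −0.48, −0.34 and −0.03. The part of that feature's share in these results was not tested. Without the same 4 libraries, Hmox1 was at 1.28 and Gsta4 at −0.89 with Fmr1 siRNA A, against 1 Scramble library. With Zfp598 siRNA A, where 1 library stood against 1, Srxn1 was at −1.38 and Nfe2l2 at −0.75. With all libraries against both Scramble siRNAs, Srxn1 was at −0.50. The call of Nfe2l2 was lost when only Zfp598 A2 and A3 were left out.

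**Figure D5:**
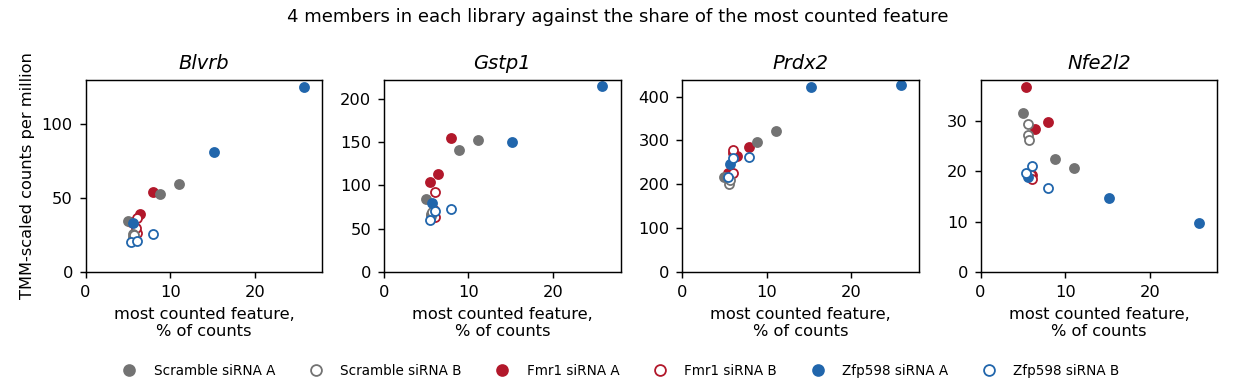
CPM of Blvrb, Gstp1, Prdx2 and Nfe2l2 (vertical axes) against the percentage of counts taken by the most counted feature (horizontal axes) in each of the 18 libraries. The library with 25.8% of its counts in that feature has the highest CPM of Blvrb (125), Gstp1 (214) and Prdx2 (427) and the lowest of Nfe2l2 (9.78).

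Gstk1 and Ptgr1 had the values that led to their choice. Gstk1 (chromosome 6, 42222830 to 42227386, GRCm39, plus strand), a kappa-class transferase of mitochondria and peroxisomes, was at 1.23, 1.13 and 1.35 CPM with Scramble siRNA A and 0.658, 0.365 and 0.575 CPM with Scramble siRNA B. It was at 2.16, 2.24 and 2.07 CPM with Fmr1 siRNA A, 1.62, 1.26 and 3.02 CPM with Fmr1 siRNA B, 2.18, 3.09 and 1.96 CPM with Zfp598 siRNA A and 1.27, 1.44 and 0.852 CPM with Zfp598 siRNA B. Each siRNA group lay above the Scramble group of its letter, yet Fmr1 siRNA B and Zfp598 siRNA B overlapped Scramble siRNA A. The pooled log2 fold changes were 1.23 (2.34-fold) in Fmr1 KD and 1.01 (2.01-fold) in Zfp598 KD, on 5 to 44 counts per library. Scramble siRNA B was lower than Scramble siRNA A by −1.19 ± 0.389. The Scramble libraries were part of the choice of this gene, so no test is given for that difference.

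Ptgr1 (chromosome 4, 58965203 to 58987131, GRCm39, minus strand), a reductase of prostaglandins, leukotrienes and reactive alkenals, was at 6.87, 6.69 and 5.24 CPM with Scramble siRNA A and 4.21, 5.76 and 5.69 CPM with Scramble siRNA B. It was at 9.46, 8.76 and 10.3 CPM with Fmr1 siRNA A, 12.1, 10.4 and 14.6 CPM with Fmr1 siRNA B, 8.19, 9.49 and 7.29 CPM with Zfp598 siRNA A and 12.2, 11.7 and 9.88 CPM with Zfp598 siRNA B. All 12 knockdown libraries were above the highest Scramble library. The pooled log2 fold changes were 0.93 and 0.78, and with siRNA A and B they were 0.60 and 1.24 for Fmr1 and 0.42 and 1.11 for Zfp598. The Scramble siRNAs differed by −0.26, given as a description for the same reason as for Gstk1.

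Another 56 genes of the same pathways, listed for comparison (51 tested), cover the other NRF2-related factors, cystine uptake, sestrins and the thioredoxin inhibitor. In pooled Fmr1 KD 1 rose (1.96%, against 2.73% of all tested genes) and 3 fell (5.88%, against 3.8%), and in pooled Zfp598 KD 0 rose (against 0.916%) and 1 fell (1.96%, against 1.04%). With Fmr1 siRNA A 4 rose (7.84%, against 10%) and 11 fell (21.6%, against 13.6%), and with Fmr1 siRNA B 6 rose (11.8%, against 11.3%) and 10 fell (19.6%, against 11.3%). With Zfp598 siRNA A 8 rose and 8 fell (15.7% each, against 6.3% and 5.64%), and with Zfp598 siRNA B 3 rose (5.88%, against 12.4%) and 12 fell (23.5%, against 14.4%). Slc7a11, the cystine-glutamate antiporter that supplies cysteine for glutathione, was at 219, 228 and 163 CPM with Fmr1 siRNA A against 33.6, 45.6 and 40.6 CPM with its Scramble siRNA, and at 51.9, 50.3 and 49.8 CPM with Fmr1 siRNA B against 37.5, 35.7 and 41 CPM. The pooled log2 fold change was 1.70 ± 0.369 (edgeR adjusted p = 0.00829). By siRNA it was 2.34 with A and 0.41 with B, and these effects differed by −1.93. With Zfp598 it was at 29.7, 25.7 and 28.5 CPM with siRNA A and 66.9, 65.6 and 60.1 CPM with siRNA B, changes of −0.52 and 0.75. Lower in pooled Fmr1 KD were Sesn3, a stress-induced sestrin (−0.64, edgeR adjusted p = 0.00399), Txnip, which inhibits thioredoxin (−0.62, edgeR adjusted p = 0.00366), and Nfe2l1, a factor related to NRF2 (−0.35, edgeR adjusted p = 0.0179). Nfe2l1 was also lower in pooled Zfp598 KD (−0.41 ± 0.0858, edgeR adjusted p = 0.0183), and the 2 pooled comparisons share their Scramble libraries.

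The counts of some members are uncertain. Ftl1, Fth1, Gpx4, Prdx1, Prdx2, Prdx6 and Gstm2 have annotated pseudogenes or copies, and the Gstm genes are close paralogs, so reads could be shared between loci. The counting was not stated to use strand. Exons of Gss, Sod1, Me1, Gstz1, Prdx2, Prdx4, Prdx5, Fth1, G6pdx, Txnrd2, Nfe2l2 and Keap1 overlap a gene on the opposite strand. So do exons of Gclm, Ftl1 and Gstm5. Exons of Gclm also overlap a transcribed pseudogene on the same strand. Those of Ftl1, Gsr and Tkt overlap a microRNA or snoRNA gene on the same strand.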

How the data were processed

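Total RNA of N2A cells, depleted of ribosomal RNA, was sequenced in 18 libraries. The authors trimmed reads, aligned them to GRCm39 and counted them per gene, and deposited the raw counts. The submitters' processing notes name Trim Galore, FastQC, STAR, featureCounts, DESeq2 and deepTools. Versions, strand setting and the handling of multimapping reads were not given in the sources used here.

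From the deposited counts, edgeR 4.0.16 (R 4.3.3) gave TMM scaling, CPM and quasi-likelihood tests. Genes were kept by filterByExpr (minimum count 10, minimum total 15), which left 17901 of 55414, and p-values were adjusted over all of them. One model held the 3 conditions (6 libraries each). A second held the 6 siRNAs (3 libraries each) and gave each siRNA against the Scramble siRNA of its letter, Scramble siRNA B against A, and the differences between siRNA effects. SE is the log2 fold change divided by the square root of F. DESeq2 1.42.0, RLE scaling, no filter, blocks, left-out libraries and a 2-fold threshold were alternatives. The code was tested on simulated data. No pair of libraries of the same siRNA agreed within sampling noise, and pairs from different siRNAs were not compared. Total counts, 7674724 to 15414590 per library, limit precision for genes of few counts.

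The members, their role groups and the lists were chosen with earlier results of these data known. Genes named with values were the regulators, Gstk1 and Ptgr1, members called in a pooled comparison, the 3 largest rises and falls among the calls of each other comparison, the highest member of each role by level, members failing the filter, and at most 5 other pathway genes per pooled comparison. Further members, among them Txnrd1, Gsr, Gpx4, Gstm1, Gstm2, Txnrd2, Gclm, Me1 and G6pdx, were named after their values were seen. Exon lengths and positions are from GENCODE M39, and promoter windows from RefSeq. Figures used matplotlib 3.10.9.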

Additional observations from a re-analysis of the deposited data

Results flagged for a closer look

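A library was marked as far from the others by a cutoff that would mark about 1 in 20 groups drawn from one normal distribution. Each group mixes 2 siRNAs, so that rate does not apply here. Among 138 groups of 6 libraries (each of 46 genes in each condition), 3 held such a library. They were Gpx1 at 41.1 CPM in library 3 of Zfp598 siRNA A (nearest other library 27.9 CPM), Gsta4 at 2.24 CPM in library 2 of Zfp598 siRNA A (nearest 1.25 CPM) and Cat, catalase, at 33.1 CPM in library 2 of Scramble siRNA A (nearest 24 CPM).

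For 35 results the effects of siRNA A and siRNA B, each against its Scramble siRNA, differed by an edgeR interaction test at adjusted p under 0.05. Values are the log2 effect of siRNA B minus that of siRNA A. For Fmr1 KD the effect of siRNA B was lower for Hmox1 (−2.19), Fth1 (−1.46), Nqo1 (−1.19), Txnrd1 (−1.05), Srxn1 (−1.01), Gsto1 (−0.99), Gsr (−0.93), Nfe2l2 (−0.88), Gpx4 (−0.75), Ftl1 (−0.72), Gclc (−0.54), Gstz1 (−0.50), Prdx3 (−0.49), Taldo1 (−0.40) and Txn2 (−0.37). It was higher for Gsta4 (2.66), Mgst3 (1.22), Tkt (0.64) and Me1 (0.56). For Zfp598 KD it was higher for Mgst3 (1.47), Srxn1 (1.24), Prdx1 (1.14), Pgd (0.95), Cat (0.78), Prdx3 (0.74), Gclm (0.60), Taldo1 (0.52), G6pdx (0.46) and Sod2 (0.43). It was lower for Gstm5 (−0.90), Fth1 (−0.77), Gss (−0.55), Txn2 (−0.55), Prdx6 (−0.52) and Ftl1 (−0.51). The Scramble siRNAs enter each value, and 16 of 44 members differed between them. With 1 library of the comparison left out, the Fmr1 calls of Taldo1 and Txn2 were kept in 2 of 12 cases each. Those of Gstz1 were kept in 5, of Gsto1 and Nqo1 in 7, of Mgst3 and Prdx3 in 11, and the other Fmr1 calls in all 12. For Zfp598, the calls of Prdx6, Cat and Gss were kept in 8, 9 and 10 of 12 cases, and the others in all 12.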

How the results depend on the processing

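Of 116 calls of members, 58 were kept under each alternative setting other than the 2-fold threshold, and without each library of their own comparison. Among the 116, 1 changed sign (Gstm1 with Fmr1 siRNA B, 0.40, was −0.03 against both Scramble siRNAs together). For the members named by rule none reversed. Their calls were kept in 304 of 366 cases with 1 library left out, 44 of 45 with DESeq2, 44 of 45 with RLE scaling, 41 of 45 without the filter, 45 of 45 without the most counted feature and 32 of 45 without the 4 libraries high in it. The last setting and the control of both Scramble siRNAs (19 of 23 kept) were chosen after seeing the data. The former leaves Zfp598 siRNA A and Scramble siRNA A with 1 library each, assumed to vary like the others.

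Pooled Zfp598 KD, with 0 members called, gave 2 with DESeq2, 2 with the siRNA letter as a block, 1 without libraries 2 and 3 of Zfp598 siRNA A and 2 without the 4 libraries. Pooled Fmr1 KD, with 4, gave 0 over 2-fold and 0 when counts were summed per siRNA (2 samples a condition, so fewer samples). The 2-fold threshold left 4 and 2 members with Fmr1 siRNA A and B, 0 and 1 with Zfp598 siRNA A and B, 2 between Scramble siRNAs, and 7 and 3 for the differences of Fmr1 and Zfp598 siRNA effects. Over all tested genes the shares were 1% in pooled Fmr1 KD, 3.61%, 4.07%, 1.42% and 5.1% for the 4 siRNAs in that order, 3.61% between Scramble siRNAs, and 7.11% and 7.4% for the differences. Zfp598 siRNA A, with 9, gave 5 without its libraries 2 and 3, 3 without the 4 libraries and 15 against both Scramble siRNAs. Scramble siRNA B against A, with 16, gave 10 without the 4 libraries.

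With 1 library left out, pooled Fmr1 KD gave 1 to 5 members, pooled Zfp598 KD 0 to 1, Fmr1 siRNA A 18 to 22, Fmr1 siRNA B 10 to 17, Zfp598 siRNA A 5 to 18, Zfp598 siRNA B 10 to 22, Scramble siRNA B against A 8 to 25, and the siRNA differences 14 to 22 for Fmr1 and 14 to 20 for Zfp598. Apart from those over 2-fold, the counts under alternative settings are given without the share of all tested genes called in the same setting. They describe how far the calls moved and are not results about the members as a set. Libraries that moved a count by over 1.5 times were Fmr1 A1 and A2 (to 1), A3 (to 2), Scramble A2 (to 2), B1, B2 (to 1) and B3 (to 2) for pooled Fmr1 KD, Scramble A2 (to 5) and Zfp598 A1 (to 18) for Zfp598 siRNA A, Zfp598 B1 and B2 (to 10 and 11) for Zfp598 siRNA B, Zfp598 A1 (to 1) for pooled Zfp598 KD, and Scramble A1 (to 8), B1, B3 (to 10 each) and Zfp598 A1 (to 25) for the Scramble siRNAs.

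Replicate numbers did not pair the libraries throughout: 45 correlations of same-numbered libraries ran from −0.399 to 0.338, and in 0 of 15 pairs of groups were all over 0.1. Those of the number 3 libraries were positive in every pair of groups, from 0.0547 to 0.275. The main models held no term for the replicate number. With siRNA letter and replicate number together as a block, 2 members were called in pooled Fmr1 KD and 1 in pooled Zfp598 KD. The comparisons of single siRNAs used the replicate number alone as the block. Over both kinds of comparison, 42 of 45 named calls were kept. Low counts limit Gstk1, Gsta4 and Mgst3.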
